A study of Homo sapiens with 6 samples.

Results

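A set of 10 genes that are switched on by the ERK pathway or regulate it was followed in HepG2 cells after knockdown of ARHGEF2. The genes were chosen by name, with earlier results of these data known, and no measured value entered the rule. They are KSR1, DUSP4, DUSP5, DUSP6, SPRY2, SPRY4, SPRED1, ETV4, ETV5 and PHLDA1. All 10 were found among the 27605 genes of the expression table, and all 10 passed the filter on low values, which asked for 0.5 FPKM on average and left 12291 genes to test. FPKM gives the sequenced fragments of a gene scaled by the length of its transcripts and by the depth of the library, so levels of different genes can be compared per length.

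The study sequenced polyadenylated RNA from HepG2, a human liver cancer cell line that the labels give as hepatoma cells. In the shNC group (3 libraries, genotype labelled WT) the cells had a negative control hairpin, and in the shARHGEF2 group (3 libraries, genotype labelled ARHGEF2 knockdown) a hairpin against ARHGEF2 was delivered by lentivirus. All libraries came from one cell line in the same growth medium, and no dose or time after infection is labelled. The labels do not say whether the libraries came from separate cultures or whether the 3 shARHGEF2 libraries had 1 hairpin in common, so the p-values measure the spread between these libraries only.

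In the RAS-ERK pathway, active RAS at the membrane recruits RAF kinases, which phosphorylate MEK, which in turn phosphorylates ERK. KSR1 is a scaffold that holds RAF, MEK and ERK together, and ARHGEF2 (GEF-H1), a microtubule-bound exchange factor for RHOA, is known to bind KSR1 and to promote its dephosphorylation and activity. Active ERK drives the transcription of its own brakes, the DUSP phosphatases and the Sprouty and SPRED proteins, and of transcription factors such as ETV4 and ETV5. In many cell types the RNA of these genes is read as a record of recent ERK activity. No ERK phosphorylation was measured in these libraries.

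ARHGEF2 itself was measured first, as a check of the labels. It had 13.0, 14.4 and 13.9 FPKM in shNC replicates 1 to 3 and 4.25, 4.004 and 4.82 FPKM in shARHGEF2 replicates 1 to 3. The groups did not overlap, and ARHGEF2 fell by 1.47 on the log2(FPKM + 1) scale (SE 0.11, limma adjusted p = 0.00244), with a ratio of the group means of 0.316. The summed FPKM of a library was 321200 to 350300, and 9882 to 10587 genes reached 1 FPKM. The read pairs behind each library, estimated from the spacing of low values within a preset range of depths, came to 20250000 to 23280000. Depth is therefore known only roughly and no counting interval was computed. Of 19 hepatocyte markers, 11 were found in the table and VTN alone reached a mean of 1 FPKM, at 5.51 to 5.55 FPKM in shNC and 6.26 to 6.60 FPKM in shARHGEF2. AFP, APOA1 and HNF4A stayed at or below 0.248 FPKM in every library, so these defining markers of the labelled hepatic line were nearly absent, and ALB is not analysed here. The summed hepatocyte markers were 6.03 to 6.25 FPKM in shNC and 6.71 to 7.72 FPKM in shARHGEF2. Of 14 markers listed for other cell types, 6 reached a mean of 1 FPKM (COL1A1, COL3A1, DCN, ACTA2, KRT18 and KRT8). EPCAM, listed there as an epithelial marker, stayed at or below 0.0547 FPKM, which is not taken as support for the label. The list summed to 310 to 401 FPKM in shNC and 295 to 370 FPKM in shARHGEF2, nearly all of it from KRT8 and KRT18, which hepatocytes and hepatic lines also express. Without these keratins, left out after the values were seen, the sums were 18.6 to 20.3 FPKM in shNC and 22.3 to 24.1 FPKM in shARHGEF2. The mesenchymal markers among them did not move as one. COL1A1 had 6.23, 6.81 and 6.08 FPKM in shNC and 9.60, 8.26 and 8.12 FPKM in shARHGEF2, with no overlap (log2 fold change 0.39, limma adjusted p = 0.188). ACTA2 did not overlap either, with means of 4.77 and 5.70 FPKM (log2 fold change 0.22, limma adjusted p = 0.459). COL3A1 and DCN overlapped, with log2 fold changes of 0.10 (limma adjusted p = 0.812) and -0.23 (limma adjusted p = 0.537). KRT18 and KRT8 overlapped too, with log2 fold changes of 0.18 (limma adjusted p = 0.570) and -0.36 (limma adjusted p = 0.438). The part of these markers in the results below was not tested.

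None of the 10 genes passed the test between the groups (limma adjusted p under 0.05), against 0.277% of all genes tested, or 0.195% counted in the higher direction. The log2 fold change was above 0 for 9 of the 10 genes, against 49.6% of all genes tested, and the median over the 10 genes was 0.22 where that of all genes was -0.00. With a library left out, the median over the 10 genes was 0.13 (without shNC replicate 1) to 0.29 (without shNC replicate 3). In 5 of them (KSR1, SPRY4, ETV4, ETV5 and PHLDA1) every shARHGEF2 library was above every shNC library, against 11.3% of all genes tested. An unadjusted limma p under 0.05 was reached by PHLDA1 and SPRY4, 2 of the 10 genes, against 8.10% of all genes tested in the higher direction. The 10 genes belong to one pathway and some respond together, so they are not independent points.

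**Figure D1:**
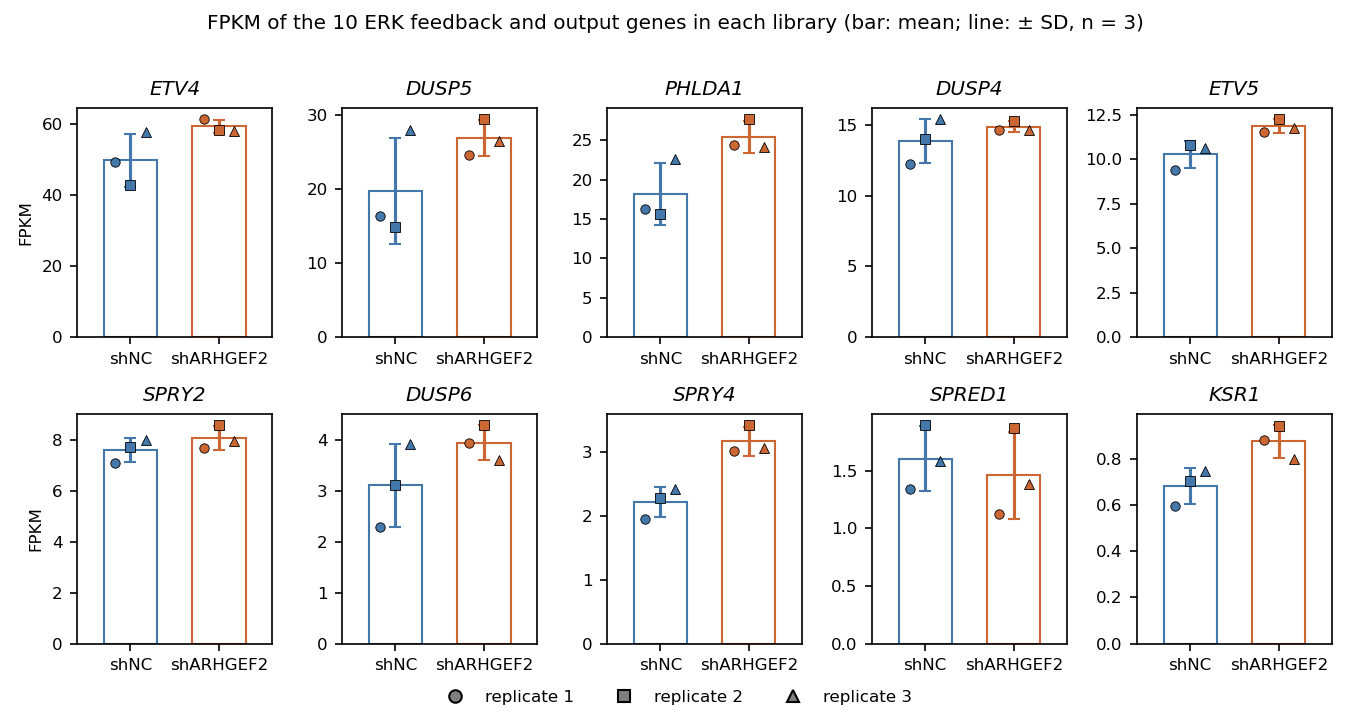
FPKM (vertical axes, linear from 0) of the 10 ERK pathway genes in the 3 shNC and the 3 shARHGEF2 libraries. Bars are group means, error bars the SD and points single libraries. PHLDA1 had 18.2 FPKM in shNC and 25.4 FPKM in shARHGEF2, while SPRED1 had 1.605 and 1.460 FPKM.

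The scaffold KSR1 (ENSG00000141068, chr17:27456470-27626438 on the plus strand, GRCh38) was the lowest of the 10 genes. It had 0.594, 0.703 and 0.747 FPKM in shNC replicates 1 to 3 and 0.881, 0.943 and 0.8002 FPKM in shARHGEF2 replicates 1 to 3. All shARHGEF2 libraries were above all shNC libraries, by a gap of 0.0528 FPKM between the nearest ones. The means were 0.681 ± 0.0791 and 0.875 ± 0.0714 FPKM (SD, n = 3 each), a ratio of 1.28. The log2 fold change was 0.16 (SE 0.10, limma adjusted p = 0.562), and since adding 1 to values under 1 shrinks a fold, it was 0.32 with a pseudocount of 0.1. At this level KSR1 stood at the 10.6th percentile of the genes tested. Its paralog KSR2, a scaffold of neuronal tissues, was at most 0.0349 FPKM in any library and was not tested.

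DUSP4, DUSP5 and DUSP6 encode dual-specificity phosphatases that remove phosphates from ERK and related kinases, DUSP4 and DUSP5 in the nucleus and DUSP6 in the cytoplasm. DUSP4 (ENSG00000120875, chr8:29333064-29350668, minus strand) had 12.2, 14.0 and 15.4 FPKM in shNC and 14.7, 15.3 and 14.6 FPKM in shARHGEF2 replicates 1 to 3. The shARHGEF2 values lay within the range of the shNC values. The log2 fold change was 0.10 with a 95% interval of -0.15 to 0.34 (limma adjusted p = 0.751). It was 0.02 without shNC replicate 1 and 0.17 without shNC replicate 3.

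DUSP5 (ENSG00000138166, chr10:110497838-110511544, plus strand) had 16.4, 14.9 and 27.9 FPKM in shNC replicates 1 to 3 and 24.6, 29.5 and 26.5 FPKM in shARHGEF2 replicates 1 to 3. shNC replicate 3 was at the level of the shARHGEF2 libraries and the other shNC libraries were below all of them, so the groups overlapped through that library. The means were 19.7 ± 7.15 and 26.9 ± 2.45 FPKM (SD, n = 3 each), a ratio of 1.36. DUSP5 had the largest log2 fold change of the 10 genes together with PHLDA1, at 0.48, but its 95% interval ran from -0.03 to 0.98 (limma adjusted p = 0.393). Without shNC replicate 3 the log2 fold change was 0.74 and DUSP5 passed the test (limma adjusted p = 0.0442), and without shNC replicate 2 it was 0.31.

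DUSP6 (ENSG00000139318, chr12:89347232-89353271, minus strand), a phosphatase with a preference for ERK, had 2.29, 3.10 and 3.91 FPKM in shNC and 3.93, 4.29 and 3.60 FPKM in shARHGEF2 replicates 1 to 3. As for DUSP5, shNC replicate 3 reached into the range of the shARHGEF2 libraries. The means were 3.10 ± 0.810 and 3.94 ± 0.345 FPKM (SD, n = 3 each), and the log2 fold change was 0.28 with a 95% interval of -0.08 to 0.65 (limma adjusted p = 0.476). It was 0.14 without shNC replicate 1 and 0.42 without shNC replicate 3.

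SPRY2 and SPRY4 encode Sprouty proteins and SPRED1 a Sprouty-related protein, which restrain signalling from receptor tyrosine kinases to RAF. SPRED1 acts by bringing neurofibromin, which inactivates RAS, to the membrane. SPRY4 (ENSG00000187678, chr5:142310427-142326455, minus strand) had 1.95, 2.29 and 2.42 FPKM in shNC replicates 1 to 3. In shARHGEF2 replicates 1 to 3 it had 3.01, 3.43 and 3.07 FPKM. The groups did not overlap and had means of 2.22 ± 0.240 and 3.17 ± 0.226 FPKM (SD, n = 3 each), with a ratio of 1.43, the largest of the 10 genes. The log2 fold change was 0.38 with a 95% interval of 0.11 to 0.64, which did not pass the test after adjustment (limma adjusted p = 0.229). SPRY4-AS1, a gene antisense to SPRY4, had 0.0847 to 0.180 FPKM in shNC and 0.0345 to 0.0604 FPKM in shARHGEF2 and was not tested. Whether the counting used strand is not given in the sources used here, so reads of the 2 genes may have been mixed.

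SPRY2 (ENSG00000136158, chr13:80335976-80340951, minus strand) had 7.10, 7.75 and 8.00 FPKM in shNC and 7.68, 8.60 and 7.96 FPKM in shARHGEF2 replicates 1 to 3. The groups overlapped, and the log2 fold change was 0.08 with a 95% interval of -0.16 to 0.31 (limma adjusted p = 0.818), and it was 0.03 without shNC replicate 1. SPRED1 (ENSG00000166068, chr15:38252326-38357249, plus strand) was the only one of the 10 genes with a lower mean in shARHGEF2. It had 1.34, 1.897 and 1.58 FPKM in shNC and 1.13, 1.87 and 1.38 FPKM in shARHGEF2 replicates 1 to 3, with replicate 2 the highest in both groups. The log2 fold change was -0.09 with a 95% interval of -0.43 to 0.25 (limma adjusted p = 0.857), and it was 0.01 without shARHGEF2 replicate 1. SPRED1 transcripts had the lowest GC content of the 10 genes, 40.4%. The libraries differed in how their values followed GC content. The rank correlations across genes were -0.53 and -0.50 in the libraries numbered 2 of shNC and shARHGEF2 and 0.39 and 0.61 in those numbered 1. In the libraries numbered 3 the signs differed, with 0.24 in shNC and -0.19 in shARHGEF2. With the GC trend of each library removed, the log2 fold change of SPRED1 was -0.07 (limma adjusted p = 0.668).

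ETV4 and ETV5 encode ETS transcription factors of the PEA3 group, whose transcription follows ERK activity when the repressor CIC leaves their genes. ETV4 (ENSG00000175832, chr17:43527844-43579620, minus strand) was the most abundant of the 10 genes, with 49.3, 42.9 and 57.8 FPKM in shNC and 61.7, 58.5 and 58.3 FPKM in shARHGEF2 replicates 1 to 3. The groups did not overlap, but the highest shNC library, replicate 3, was only 0.512 FPKM below the lowest shARHGEF2 library. The log2 fold change was 0.26 (SE 0.11, limma adjusted p = 0.373), and it was 0.15 without shNC replicate 2. ETV5 (ENSG00000244405, chr3:186046308-186110318, minus strand) had 9.39, 10.8 and 10.6 FPKM in shNC and 11.5, 12.3 and 11.7 FPKM in shARHGEF2 replicates 1 to 3. Its groups did not overlap either. The means were 10.3 ± 0.770 and 11.9 ± 0.384 FPKM (SD, n = 3 each), with a log2 fold change of 0.19 (SE 0.10, limma adjusted p = 0.445).

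PHLDA1 (ENSG00000139289, chr12:76025447-76033932, minus strand) encodes a pleckstrin homology-like protein whose RNA follows ERK activity. It had 16.3, 15.6 and 22.6 FPKM in shNC replicates 1 to 3 and 24.4, 27.7 and 24.1 FPKM in shARHGEF2 replicates 1 to 3. The groups did not overlap, and again shNC replicate 3 was the shNC library nearest to the shARHGEF2 libraries. The means were 18.2 ± 3.89 and 25.4 ± 2.02 FPKM (SD, n = 3 each), a ratio of 1.40. PHLDA1 had the smallest unadjusted p of the 10 genes, with rank 561 among the 12291 genes tested, and a log2 fold change of 0.48 with a 95% interval of 0.15 to 0.81 (limma adjusted p = 0.207). It was 0.38 without shNC replicate 2 and 0.64 without shNC replicate 3 (limma adjusted p = 0.0523).

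**Figure D2:**
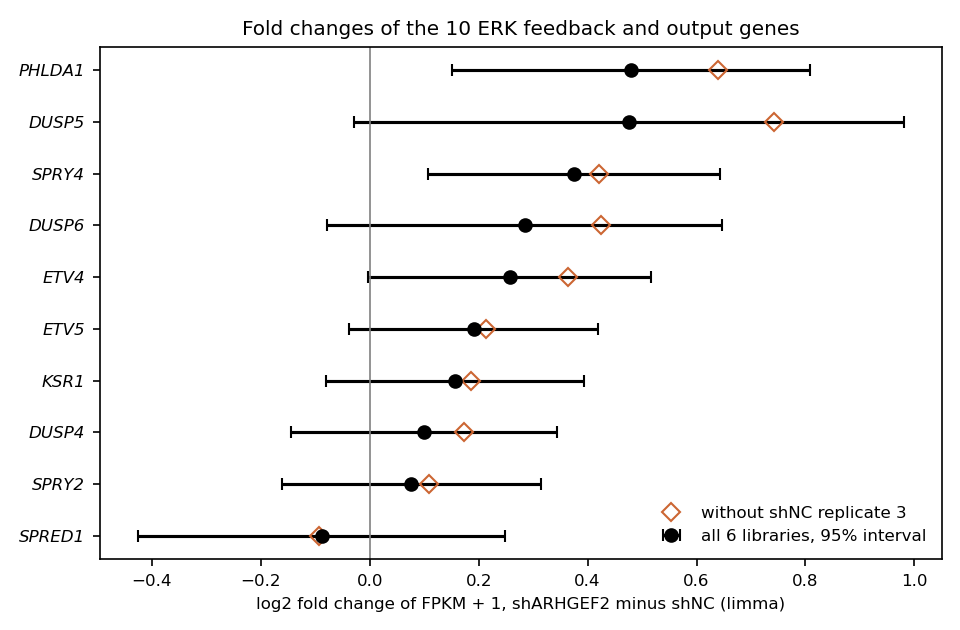
Log2 fold change (shARHGEF2 minus shNC, horizontal axis, on log2(FPKM + 1)) of the 10 genes with its 95% interval from limma. Open diamonds give the value without shNC replicate 3. Of the fits with a library left out, that one had the highest median over the 10 genes (0.29). The lowest was 0.13, without shNC replicate 1, and is not drawn. The intervals of PHLDA1 (0.15 to 0.81) and SPRY4 (0.11 to 0.64) lie above 0 before adjustment. DUSP5 moves from 0.48 to 0.74 without shNC replicate 3 and to 0.31 without shNC replicate 2.

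Exact permutation tests of the FPKM values were also run on single genes. The 5 genes without overlap had a two-sided exact permutation p of 0.1, the smallest that 3 libraries against 3 can give. DUSP6 had an exact permutation p of 0.2, DUSP5 of 0.3, DUSP4 and SPRY2 of 0.5 and SPRED1 of 0.7.

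The shNC libraries were less alike than the shARHGEF2 libraries in these genes. The coefficient of variation was wider in shNC for 9 of the 10 genes, SPRED1 being the exception, and for 57.9% of all genes tested. Its median over the 10 genes was 13.3% in shNC and 7.54% in shARHGEF2, where all genes tested had 14.8% and 12.4%. shNC replicate 3 was the highest shNC library in 8 of the 10 genes (all but ETV5 and SPRED1), whereas it was the highest in 29.2% of all genes tested. Without shNC replicate 3, a choice made after the values were seen, 8 of the 10 genes (all but SPRY2 and SPRED1) were higher in every shARHGEF2 library, against 18.2% of all genes tested. Leaving out a library can only raise this count. The one left out was the highest shNC library far more often in the 10 genes than over all genes tested. The 18.2% is therefore not a like-for-like background. Without that library DUSP5 was the only one of the 10 genes called, while the genes called over the whole table went from 34 to 102.

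**Figure D3:**
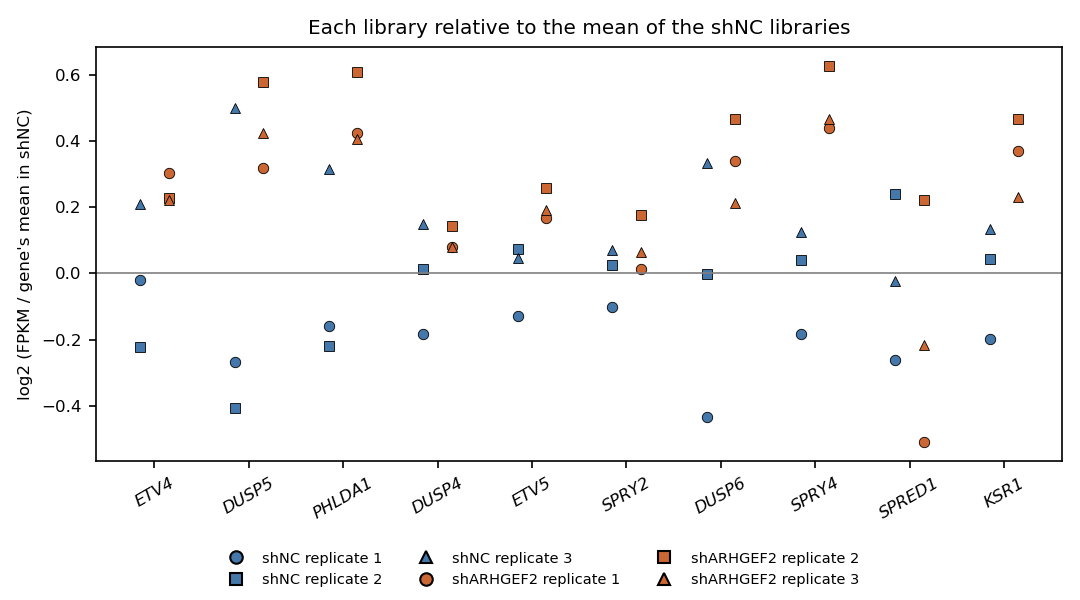
Log2 ratio of the FPKM in each library to the mean of the 3 shNC libraries of that gene (vertical axis) for the 10 genes (horizontal axis). Colours mark the groups and point shapes the replicate, and shNC replicate 3, the triangle, is the highest shNC library in 8 of the 10 genes.

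Per length, the 10 genes covered a wide range of levels. In shNC the order of the mean FPKM was ETV4, DUSP5, PHLDA1, DUSP4, ETV5, SPRY2, DUSP6, SPRY4, SPRED1 and KSR1, and it was the same in shARHGEF2. ETV4 was at 2.53 times the level of DUSP5 in shNC and at 2.21 times in shARHGEF2, with no overlap between their libraries. DUSP5 and PHLDA1 overlapped in both groups, with a ratio of their means of 1.09 in shNC and 1.06 in shARHGEF2. DUSP6 and SPRY4 overlapped in shNC (ratio 1.40) and not in shARHGEF2 (ratio 1.24). The other neighbours in this order did not overlap in either group.

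Promoter sequence is shown for DUSP6 and PHLDA1, where a CIC octamer (DUSP6) or an ETS core (PHLDA1) was found at an annotated start. It is shown since these genes are read together as targets of the ERK pathway. RefSeq windows (GRCh38.p14, from 250 bases before to 50 after a start) were at hand for 6 of the 10 genes, as 10 windows because KSR1 and SPRY2 have 3 starts each. They were searched on both strands for the CIC octamer (TGAATGAA, TGAATGGA, TCAATGAA or TCAATGGA), found in 3.77% of all 35116 windows, the ETS core (CCGGAA), found in 17.2%, and the AP-1 motif (TGACTCA), found in 4.95%. Of the 10 windows, 2 held a CIC octamer (DUSP6 and KSR1), 2 an ETS core (PHLDA1 and SPRY2) and 1 an AP-1 motif (KSR1). The share with an ETS core was near that of all windows. No match of one motif overlapped one of another. Each stretch below is 100 bases, 5′ to 3′ on the strand of the gene, with the matches in capitals. A match is a description of the letters and not a site shown to be used.
DUSP6 holds 2 CIC octamers, each TCAATGGA on the opposite strand, in chr12:89352472-89352571 on the minus strand.
DUSP6: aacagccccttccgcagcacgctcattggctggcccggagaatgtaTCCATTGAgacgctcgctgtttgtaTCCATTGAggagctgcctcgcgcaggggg
PHLDA1 holds an ETS core on the opposite strand, in chr12:76031813-76031912 on the minus strand.
PHLDA1: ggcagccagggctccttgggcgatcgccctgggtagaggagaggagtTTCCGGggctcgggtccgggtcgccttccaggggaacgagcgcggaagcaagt
KSR1 (a CIC octamer and an AP-1 motif) and SPRY2 (an ETS core) each held matches in the window of 1 of 3 RefSeq starts. The 50 bases after either start were not found in full in a GENCODE 29 transcript, so those stretches are not printed. The windows of SPRY4 and SPRED1 held none of these letters.

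The rest of the pathway was described with gene lists of the same kind. Of 24 genes of the cascade from RAS to ERK, 19 were tested and 0 passed the test, with 8 log2 fold changes above 0 and 11 below and a median of -0.03 (-0.05 to 0.07 with a library left out). An unadjusted limma p under 0.05 was reached by 1 gene in each direction, against 8.10% of all genes tested in the higher and 5.55% in the lower direction. HRAS, a RAS GTPase, had 33.8, 31.3 and 28.96 FPKM in shNC and 25.5, 19.9 and 26.2 FPKM in shARHGEF2 replicates 1 to 3, with no overlap and a log2 fold change of -0.39 (limma adjusted p = 0.232). MAP2K1, which encodes the ERK kinase MEK1, had 32.6, 34.7 and 36.2 FPKM in shNC and 37.9, 43.8 and 41.1 FPKM in shARHGEF2, with no overlap and a log2 fold change of 0.24 (limma adjusted p = 0.319). HRAS and MAP2K1 thus lay on opposite sides. In 2 of the 19 genes, MAP2K1 and SHC1, every shARHGEF2 library was higher, against 11.3% of all genes tested. In 1, HRAS, every shARHGEF2 library was lower, against 9.17%. SHC1, named after its values were seen, had 73.4, 67.7 and 72.0 FPKM in shNC and 78.3, 75.8 and 74.4 FPKM in shARHGEF2. Its log2 fold change was 0.10 (limma adjusted p = 0.640). MRAS, another RAS GTPase, had a log2 fold change of -0.30 (limma adjusted p = 0.541).

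Of 8 other brakes of the pathway, 7 were tested and 0 passed the test, against 0.277% of all genes tested. An unadjusted limma p under 0.05 was reached by 0 of the 7. Over all genes tested the shares were 8.10% in the higher and 5.55% in the lower direction. The log2 fold change was above 0 for 3 and below 0 for 4, with a median of -0.05 (-0.07 to 0.05 with a library left out). The transcriptional repressors ERF and CIC, both inactivated by ERK, each had a log2 fold change of 0.22 (limma adjusted p = 0.438). DAB2IP, a RAS GTPase-activating protein, had one of 0.28 (limma adjusted p = 0.527). In 1 of the 7, PEBP1, every shARHGEF2 library was below every shNC library, against 9.17% of all genes tested. PEBP1 was named after its values were seen. It had 138, 140 and 137 FPKM in shNC and 132, 133 and 131 FPKM in shARHGEF2 replicates 1 to 3. Its log2 fold change was -0.07 (limma adjusted p = 0.755).

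Of the 21 genes of the KSR1 scaffold and its regulators, 20 were tested, and ARHGEF2 was the only one to pass the test. Without it, 19 genes had a median log2 fold change of -0.01 (-0.03 to 0.09 with a library left out). In 2 of the 19 every shARHGEF2 library was above every shNC library, a share near the 11.3% of all genes tested. These are PPP2R5D and PPP2R5B, which encode regulatory subunits of the phosphatase PP2A. PPP2R5D had 17.1, 18.7 and 20.9 FPKM in shNC and 22.6, 24.5 and 22.0 FPKM in shARHGEF2, a log2 fold change of 0.28 (limma adjusted p = 0.3001). PPP2R5B had means of 9.67 and 11.7 FPKM (log2 fold change 0.25, limma adjusted p = 0.348). PPP2CB, a catalytic subunit of PP2A, had means of 13.1 and 15.3 FPKM (log2 fold change 0.21, limma adjusted p = 0.494).

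Of 14 other members of the families of the 10 genes, 11 were tested and 0 passed the test. In 6 of the 11 every shARHGEF2 library was above every shNC library, against 11.3% of all genes tested. An unadjusted limma p under 0.05 was reached by 5 of the 11, all in the higher direction, against 8.10% of all genes tested. Their log2 fold changes ran from -0.15 to 0.54 with a median of 0.24, which was 0.18 without shNC replicate 2 and 0.27 without shNC replicate 3. Relative to the median of all genes, the list's median was 0.18 to 0.26 under the other scalings and 0.14 to 0.28 with a library left out. PHLDA2, a paralog of PHLDA1, had 171, 146 and 174 FPKM in shNC and 230, 227 and 223 FPKM in shARHGEF2, a log2 fold change of 0.47 (SE 0.09, limma adjusted p = 0.103). DUSP1, an immediate early phosphatase that acts on p38 and JNK as well as ERK, had 94.9, 98.0 and 117 FPKM in shNC and 138, 138 and 139 FPKM in shARHGEF2. Its log2 fold change was 0.42 (limma adjusted p = 0.126), and without shNC replicate 3, its highest shNC library, it passed the test with 0.52 (limma adjusted p = 0.0489). This was the only one of 15 alternatives in which DUSP1 was called, and over all of them its log2 fold change was 0.37 to 0.52 (limma adjusted p 0.0489 to 0.408). DUSP8, a phosphatase with a preference for JNK and p38, had 4.15, 3.54 and 5.80 FPKM in shNC and 7.48, 7.12 and 6.08 FPKM in shARHGEF2 (log2 fold change 0.54, limma adjusted p = 0.208). The 7 DUSP genes of this list had a median of 0.25, and in 5 of them every shARHGEF2 library was above every shNC library, against the same 11.3%. Not all of these phosphatases act on ERK. DUSP5P1, a pseudogene of DUSP5, was at most 0.407 FPKM in any library and was not tested, and reads that fit both DUSP5 and its pseudogene may have been split between them.

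**Figure D4:**
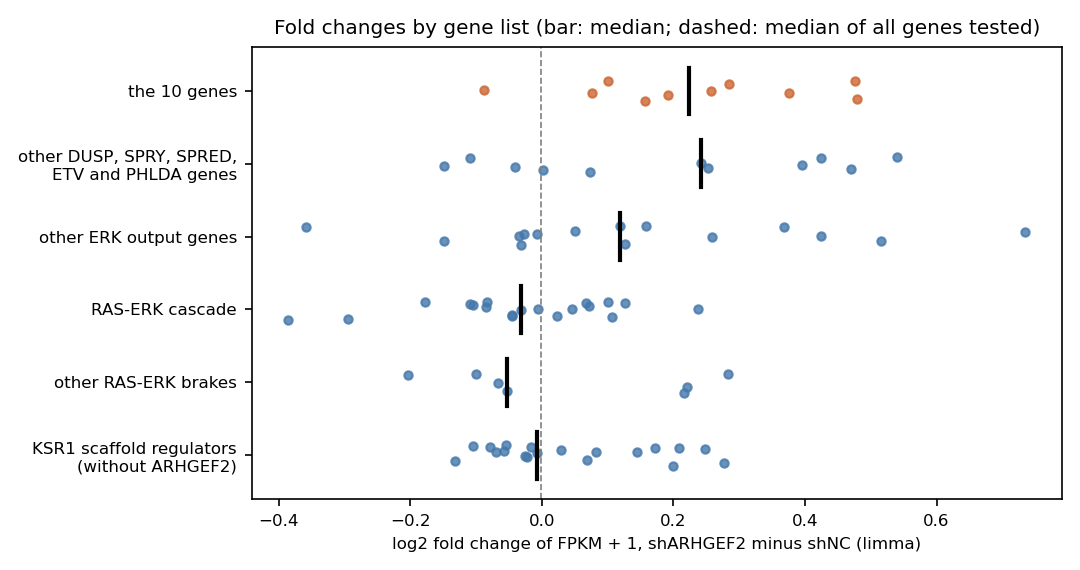
Log2 fold change (shARHGEF2 minus shNC, on log2(FPKM + 1)) of the tested genes of each list. Points are genes and bars are list medians. The medians of the 10 genes (0.22) and of the other members of their families (0.24) lie above those of the cascade (-0.03) and of the other brakes (-0.05). The genes listed as other ERK outputs lie between, at 0.12, with 9 genes above 0 and 6 below.

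Of 18 other genes listed as outputs of ERK, 15 were tested and 0 passed the test, with 9 log2 fold changes above 0, 6 below and a median of 0.12, which was 0.04 without shNC replicate 1. The list also holds the ETS factors ELK1, ELK3, ELK4, ETS1 and ETS2, and whether their RNA follows ERK in these cells was not tested. In 2 of the 15, IER3 and ELK1, every shARHGEF2 library was higher (11.3% of all genes tested). In 1, EGR1, every shARHGEF2 library was lower (9.17% of all genes tested). IER3, an immediate early gene of stress and growth factor responses, had the largest value of this list. It had 381, 340 and 517 FPKM in shNC replicates 1 to 3 and 668, 705 and 659 FPKM in shARHGEF2 replicates 1 to 3, with shNC replicate 3 again the highest shNC library and no overlap. Its log2 fold change was 0.73 (limma adjusted p = 0.105), and without shNC replicate 3 it was 0.91 and passed the test (limma adjusted p = 0.0171). IER3 was called in that 1 of 15 alternatives, over which its log2 fold change was 0.61 to 0.91 (limma adjusted p 0.0171 to 0.404). The cytokine LIF had means of 14.9 and 19.3 FPKM (log2 fold change 0.37, limma adjusted p = 0.349), and the receptor tyrosine kinase EPHA2 means of 123 ± 20.3 and 147 ± 7.13 FPKM (SD, n = 3 each, log2 fold change 0.26, limma adjusted p = 0.388). EGR1, an immediate early transcription factor whose RNA follows ERK activity, was named after its values were seen. It had 3.49, 4.07 and 3.75 FPKM in shNC replicates 1 to 3 and 3.36, 1.84 and 3.15 FPKM in shARHGEF2 replicates 1 to 3, with no overlap and a log2 fold change of -0.36 (limma adjusted p = 0.408).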

How the data were processed

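RNA sequencing of 6 HepG2 libraries, 3 shNC and 3 shARHGEF2 (groups from the sample titles), was analysed from one table in which the authors deposited FPKM per gene. The submitters' processing notes name cutadapt 1.9, HISAT2 2.0.4, UMI-tools, StringTie 1.3.4d, DESeq2, edgeR and hg19. The table's columns of fold, log2 fold, p-value and q-value are the authors' own comparison and were not used. Of 112516 listed transcripts, 94.7% were found in GENCODE 29, which gave GRCh38 positions and GC content. The table itself holds no coordinates.

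The test was run on genes averaging 0.5 FPKM or more, with limma 3.58.1 (R 4.3.3, statmod 1.5.0) on log2(FPKM + 1) with a mean-variance trend and robust estimation. P-values were adjusted by Benjamini-Hochberg over 12291 genes and called under 0.05. This scale understates the change of low genes. Exact permutation tests were two-sided (SciPy 1.17.1 in Python 3.11.15, beside numpy 2.4.6 and pandas 2.3.3), and matplotlib 3.10.9 drew the plots. The scripts were tested on simulated data. Depth was estimated from the spacing of low FPKM values, as the depth at which they lay nearest to whole read pairs. The search covered only a preset range of depths, and the low values were picked at an assumed depth within it. At that depth 34.9% to 37.0% of them lay within 0.1 of a whole read pair, so no counts were recovered. A depth fixed in advance would give 20% by chance, which is not the chance level for a fitted depth.

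The members and the gene lists were chosen with earlier results of these data known. Named from each list were the genes called and the 3 with the smallest unadjusted p at a mean of at least 1 FPKM, beside all members, ARHGEF2, listed pseudogene or antisense neighbours and defining markers. The alternatives tried were pseudocount, filter, scaling, a GC correction (loess span 0.3), no trend, a replicate block, an adjusted p under 0.1 and each library left out. The non-overlap of the 10 genes with a library left out was added after the values were seen.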

Additional observations from a re-analysis of the deposited data

How the results depend on the processing

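Of 10 genes, 0 were called in every setting but the one without shNC replicate 3, where DUSP5 was, its log2 fold change running from 0.31 to 0.74 with a library left out, so the number called with a library left out was 0 to 1. The number without overlap between the groups was 5 to 8 with a library left out, while the share of all genes tested was 13.6% to 18.5% (11.3% with all libraries). The 8 came without shNC replicate 3, which was the highest shNC library in 8 of the 10 genes. The sign of the log2 fold change held for 9 of them throughout, whereas SPRED1 ran from -0.21 to 0.011 and turned above 0 without shARHGEF2 replicate 1. The genes called over the whole table moved with the setting: 34 (24 higher, 10 lower) as reported, 1 without a filter on low values, 54 with at least 1 FPKM in 3 or more libraries, 19 after quantile normalization, 7 after median-of-ratios scaling, 7 without trend and robust estimation, 63 with the GC trend removed, 77 at an adjusted p under 0.1 and 6 to 102 with a library left out. The split of higher and lower calls also moved, to 12 and 7 after quantile normalization and 5 and 8 without shNC replicate 1. ARHGEF2 kept its log2 fold change of -1.47 but missed the threshold without a filter (limma adjusted p = 0.0701) and with a replicate block (limma adjusted p = 0.0716), and so the KSR1 scaffold list had 0 genes called in both. The replicate block called 0 genes, with 1976 at an unadjusted p under 0.05. The correlations of libraries sharing a number were 0.184 (number 1), 0.159 (number 2) and -0.105 (number 3). Those of libraries with different numbers were -0.221 to 0.0683, below the values of numbers 1 and 2. The reported fit did not pair the libraries, and whether the numbers mark pairs was not tested. The causes were not tested. KSR1 was not tested with at least 1 FPKM in 3 or more libraries. FPKM and 3 libraries a group limit what could be detected: the 95% intervals of the 10 genes had upper ends of 0.25 (SPRED1) to 0.98 (DUSP5), and counting error at low FPKM is unknown.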

Other observations

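2 genes of the output list stood out for single libraries and were chosen after their values were seen. MYC had 10.7, 3.71 and 3.99 FPKM in shNC replicates 1 to 3 and 32.7, 3.13 and 3.78 FPKM in shARHGEF2 replicates 1 to 3, so the library numbered 1 was the highest in both groups. MAFF had 11.7, 2.92 and 16.5 FPKM in shNC and 16.5, 19.8 and 6.03 FPKM in shARHGEF2 replicates 1 to 3, with ranges that overlapped.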
